A study of Arabidopsis thaliana with 54 samples.

Results

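The 9 Arabidopsis genes of coumarin synthesis and secretion described here were followed through roots and rosettes of plants deprived of iron, copper or both. They were chosen by locus identifier, as the genes that make, convert, release, export or regulate the coumarins that mobilise iron, and made up 9 of the 33610 genes counted in every library. The study measured gene expression by RNA sequencing in 54 libraries, 3 for each of 18 groups, from roots and rosettes of the wild type Col-0 and of spl7, an insertion line (SALK_109908c) in the gene for SPL7, the transcription factor of the copper deficiency response. Plants were raised for 10 days as seedlings and for 14 days in aerated hydroponic solution with 25 µM iron, supplied as Fe(III)-EDDHA, and then treated for 3 days. The control treatment held 25 µM iron and 0.5 µM copper, the copper-free treatment 25 µM iron and no copper, the iron-free treatment 0.5 µM copper and no iron, and the doubly deficient treatment neither metal. Before treatment Col-0 received 0.1 µM copper. The 4 treated and control groups of spl7 had a rescue pretreatment with 2.5 µM copper, and a further spl7 control per tissue had the 0.1 µM pretreatment of Col-0 (called the low-copper spl7 control here). A response of spl7 and a response of Col-0 therefore differ in pretreatment as well as in genotype. Nothing in the labels says that the 3 replicates of a group came from separate containers, so the p-values reflect how far these samples differ from each other, and part of that may be technical.

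Coumarins with a pair of neighbouring hydroxyl groups bind and reduce ferric iron, and Arabidopsis roots secrete them when iron is scarce or poorly soluble. The pathway starts from feruloyl-CoA of the phenylpropanoid pathway. F6'H1 (AT3G13610) and its close relative F6'H2 (AT1G55290) hydroxylate feruloyl-CoA, COSY (AT1G28680) closes the ring to give scopoletin, S8H (AT3G12900) turns scopoletin into fraxetin, and the cytochrome P450 CYP82C4 (AT4G31940) turns fraxetin into sideretin. BGLU42 (AT5G36890) is a glucosidase that frees stored coumarins from their sugar, and ABCG37 (AT3G53480, also PDR9) is an exporter in the root plasma membrane. MYB72 (AT1G56160) and MYB10 (AT3G12820) are transcription factors of the iron deficiency response. The bHLH factor FIT works with partners such as BHLH38 and activates IRT1 and FRO2, the root iron transporter and ferric reductase.

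The 300 bases before the annotated gene start are printed for 4 of the genes, because S8H and CYP82C4 were nearest to each other in their course across the root libraries, while F6'H1 and F6'H2 encode like enzymes and differed in level. The sequences are from the RefSeq TAIR10.1 assembly, in the direction of the gene, and capitals mark the letters CANNTG, the core that bHLH proteins bind (the core reads as itself on either strand).
S8H, chr3:4104163-4104462, plus strand: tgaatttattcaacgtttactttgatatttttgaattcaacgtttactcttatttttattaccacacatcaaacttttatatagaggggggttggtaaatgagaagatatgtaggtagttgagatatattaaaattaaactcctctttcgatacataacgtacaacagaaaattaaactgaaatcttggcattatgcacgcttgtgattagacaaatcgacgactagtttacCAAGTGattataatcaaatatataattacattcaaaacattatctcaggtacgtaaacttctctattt
CYP82C4, chr4:15451688-15451987, plus strand: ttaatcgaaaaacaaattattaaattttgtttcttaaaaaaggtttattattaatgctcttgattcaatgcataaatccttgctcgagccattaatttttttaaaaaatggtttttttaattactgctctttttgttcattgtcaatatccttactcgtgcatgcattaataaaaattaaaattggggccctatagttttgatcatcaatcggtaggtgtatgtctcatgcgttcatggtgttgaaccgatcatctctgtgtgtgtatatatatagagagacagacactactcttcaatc
F6'H1, chr3:4448959-4449258, plus strand: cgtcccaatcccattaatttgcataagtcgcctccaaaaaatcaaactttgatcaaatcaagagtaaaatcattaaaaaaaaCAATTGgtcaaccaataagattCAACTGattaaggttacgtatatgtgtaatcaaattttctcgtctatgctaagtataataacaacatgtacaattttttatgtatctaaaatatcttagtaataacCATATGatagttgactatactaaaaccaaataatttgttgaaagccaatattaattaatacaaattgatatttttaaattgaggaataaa
F6'H2, chr1:20627514-20627813, minus strand: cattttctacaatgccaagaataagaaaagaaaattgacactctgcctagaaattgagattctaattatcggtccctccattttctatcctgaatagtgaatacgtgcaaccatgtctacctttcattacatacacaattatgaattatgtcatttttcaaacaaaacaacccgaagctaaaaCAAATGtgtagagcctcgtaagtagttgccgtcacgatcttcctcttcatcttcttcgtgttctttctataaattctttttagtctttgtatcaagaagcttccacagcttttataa
CANNTG occurred once in the S8H window, 3 times in the F6'H1 window, once in the F6'H2 window and not at all in the CYP82C4 window. Over the 9 genes 5 windows held it, against 61.9% of the windows of 27443 genes. GTAC, the core of the copper response element that SPL7 binds, was found in 4 of the 9 windows, among them S8H with 2 matches and F6'H1 with 1, and in 39.7% of all windows. None of the 9 windows held CACGTG, one form of CANNTG, which 7.09% of all windows held. These are matches of letters within 300 bases and nothing more.

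Read totals lay between 9.25 and 17.28 M per root library (median 13.56 M) and between 11.69 and 20.06 M per rosette library. All levels are counts-per-million values (CPM) after scaling of library totals within each tissue. Differences between groups are log2 changes ± standard error from edgeR's quasi-likelihood test, called at an adjusted p below 0.05. SPL7 transcripts were lower in all spl7 libraries than in any Col-0 library of the same tissue (23.0 to 28.9 CPM against 58.3 to 77.8 CPM in roots, and 9.05 to 18.3 CPM against 23.5 to 30.8 CPM in rosettes). The summed level of 5 root markers, with the root hair genes COBL9 and EXPA7 and the endodermal CASP1 among them, was 720 to 1855 CPM in roots and at most 2.67 CPM in rosettes. The larger part of this sum in roots came from the phosphate and nitrate transporter genes PHT1;1 (433 to 949 CPM) and NRT2:1 (41.4 to 1137 CPM). COBL9 was at 12.5 to 41.1 CPM, EXPA7 at 25.1 to 84.6 CPM and CASP1 at 56.5 to 178 CPM there. The summed level of 5 leaf markers was 17.1 to 203 CPM in roots and at least 19880 CPM in rosettes. The material was whole organs, so fewer cells expressing a gene and less of its RNA per cell cannot be told apart. One root library stood apart for the coumarin genes. Replicate 2 of doubly deficient spl7 had the highest level of all 27 root libraries for 7 of the 9 genes, the exceptions being F6'H2 and COSY. In iron-free spl7 roots, replicates 1 and 2 differed from replicate 3 in many genes, as in 1137, 819 and 68.5 CPM of the nitrate transporter gene NRT2:1. Some of the tested differences that turned on these libraries are given with and without them. For the others, the closing section on processing gives only counts of called genes.

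In Col-0 control roots the pathway ran from very high to barely detectable transcripts. Per kilobase of exon, the mean levels were 197 CPM for F6'H1, 69.5 CPM for ABCG37, 41.8 CPM for CYP82C4, 21.8 CPM for S8H, 6.73 CPM for BGLU42, 6.59 CPM for COSY, 4.88 CPM for MYB10, 1.72 CPM for F6'H2 and 0.356 CPM for MYB72. F6'H1 thus exceeded its relative F6'H2 in every control root library, by 335, 262 and 273 CPM against 2.27, 1.85 and 3.00 CPM. The levels of F6'H1 and ABCG37 (329, 337 and 311 CPM) were close between replicates. Those of S8H and CYP82C4 were not.

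Compared with rosettes, Col-0 control roots held far more transcript of the synthesis and export genes, as the plot of roots and rosettes shows. Of the 9 genes 7 were called, 6 higher and 1 lower in roots, where 77.9% of the 22078 genes tested were called (40.8% higher, 37.2% lower). F6'H1 was at 0.127, 0.534 and 0.701 CPM in control rosettes, a difference of 8.81 ± 0.35 (adjusted p = 4.31e-25). ABCG37 was at 2.22, 2.06 and 1.62 CPM there, a difference of 6.92 ± 0.26 (adjusted p = 5.44e-26). Neither gene's root and rosette values overlapped. S8H had no count in the control rosettes, and its floor there, taken as 3 counts in each library, was 0.194 CPM. Its root mean of 30.8 CPM was at least 159-fold higher on levels scaled within each tissue. On the same levels CYP82C4, with 2 counts in the control rosettes against 3201 in roots, had a ratio of 1750 (484 to 14500, counting error only). The log2 changes come from a joint scaling of all 54 libraries, in which roots lie somewhat lower against rosettes than in the CPM. F6'H2 (2.98 ± 0.47, adjusted p = 4.02e-07) and COSY (1.54 ± 0.17, adjusted p = 1.29e-10) were also higher in roots. BGLU42 went the other way, with 26.9, 30.2 and 29.2 CPM in rosettes against 20.1, 10.3 and 16.1 CPM in roots (-1.36 ± 0.34, adjusted p = 0.000354). MYB10 and MYB72 were not called (adjusted p = 0.0667 and 0.0941). Both were called without replicate 2 of the root controls, MYB10 at 1.41 (adjusted p = 0.0139).

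**Figure D1:**
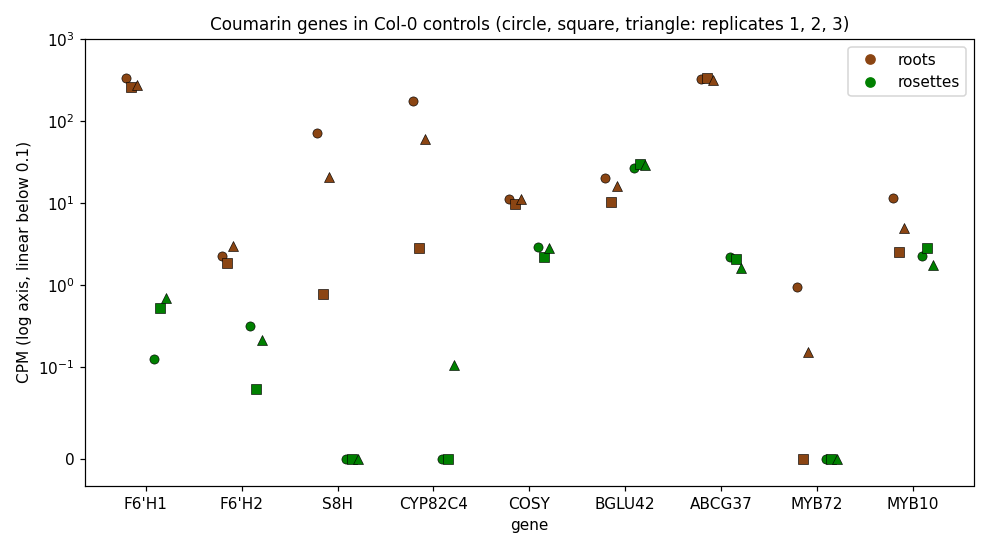
Level of each coumarin gene in the 3 root and 3 rosette libraries of Col-0 controls, in CPM on a log axis that is linear below 0.1. Each point is a library, and CPM were scaled within each tissue. F6'H1 sits between 262 and 335 CPM in roots and below 1 CPM in rosettes, S8H has no count in rosettes, and BGLU42 is the gene whose rosette points lie above its root points.

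The 3 days without iron were compared with the control in Col-0 roots to see which steps of the pathway respond. All 9 genes lay higher in iron-free than in control roots with no overlap between the groups, which held for 21.9% of all 20462 genes tested. Of the 9, 5 passed the test as higher and 0 as lower, where 20.4% of all genes were called (9.94% higher). The median change of the 9 was 1.39, against 0.01 over all genes tested. F6'H1 rose to 554, 491 and 543 CPM (0.87 ± 0.24, adjusted p = 0.0146). F6'H2 rose to 5.52, 6.30 and 4.59 CPM (1.22 ± 0.27, adjusted p = 0.00424), and remained a small part of the hydroxylase transcripts, at 3.96 CPM per kilobase against 360 CPM for F6'H1. COSY, which closes the coumarin ring, stood at 13.7, 12.7 and 12.4 CPM after 11.1, 9.86 and 11.2 CPM in the control, a change of 0.27 ± 0.16 that did not pass (adjusted p = 0.224).

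The later enzymes reached high and even levels without iron after very uneven levels with it. S8H was at 166, 123 and 175 CPM without iron and at 71.0, 0.777 and 20.8 CPM in the control. CYP82C4 was at 221, 183 and 213 CPM against 173, 2.87 and 60.4 CPM. Both groups were separate for both genes, and neither change passed (S8H 2.34 ± 1.31, adjusted p = 0.204, and CYP82C4 1.39 ± 1.49, adjusted p = 0.525). The control replicates differed widely, and neither change passed when any 1 of the 6 compared libraries was left out. Control replicate 2, with the lowest S8H and CYP82C4, was also lowest for FRO2 (43.9 CPM against 432 and 217 CPM) and IRT1 (56.7 CPM against 567 and 305 CPM).

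Release, export and regulation followed the same direction. BGLU42 rose from 20.1, 10.3 and 16.1 CPM to 40.6, 31.4 and 49.8 CPM (1.40 ± 0.45, adjusted p = 0.0309). ABCG37 stood at 531, 422 and 496 CPM against 329, 337 and 311 CPM, which did not pass (0.57 ± 0.23, adjusted p = 0.0831), although it did when the iron-free and control libraries were fitted alone (adjusted p = 0.00594). MYB10 rose from 11.7, 2.51 and 4.92 CPM to 23.5, 25.4 and 29.9 CPM (2.06 ± 0.54, adjusted p = 0.0118). MYB72, with 13, 0 and 2 counts in the control and 47, 34 and 54 counts without iron (2.95, 2.25 and 3.82 CPM), rose by 3.06 ± 1.06 (adjusted p = 0.0468), a call that was lost in the DESeq2 Wald test (adjusted p = 0.286) and when any of these 6 libraries other than control replicate 1 was left out (adjusted p 0.0714 to 0.191). The number of called genes fell to 1, F6'H2, without control replicate 2, and to 3 without control replicate 3 or without iron-free replicate 1 or 3. The summed leaf markers were 28.3 to 45.7 CPM in iron-free roots and 53.2 to 93.0 CPM in the controls, with 0 of 5 called. The summed root markers were 923 to 1017 CPM against 857 to 961 CPM, and 2 of the 5, the root hair genes COBL9 (0.80 ± 0.17, adjusted p = 0.00395) and EXPA7 (0.64 ± 0.16, adjusted p = 0.00867), were called as higher. The part of these markers in the coumarin gene differences was not tested.

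**Figure D2:**
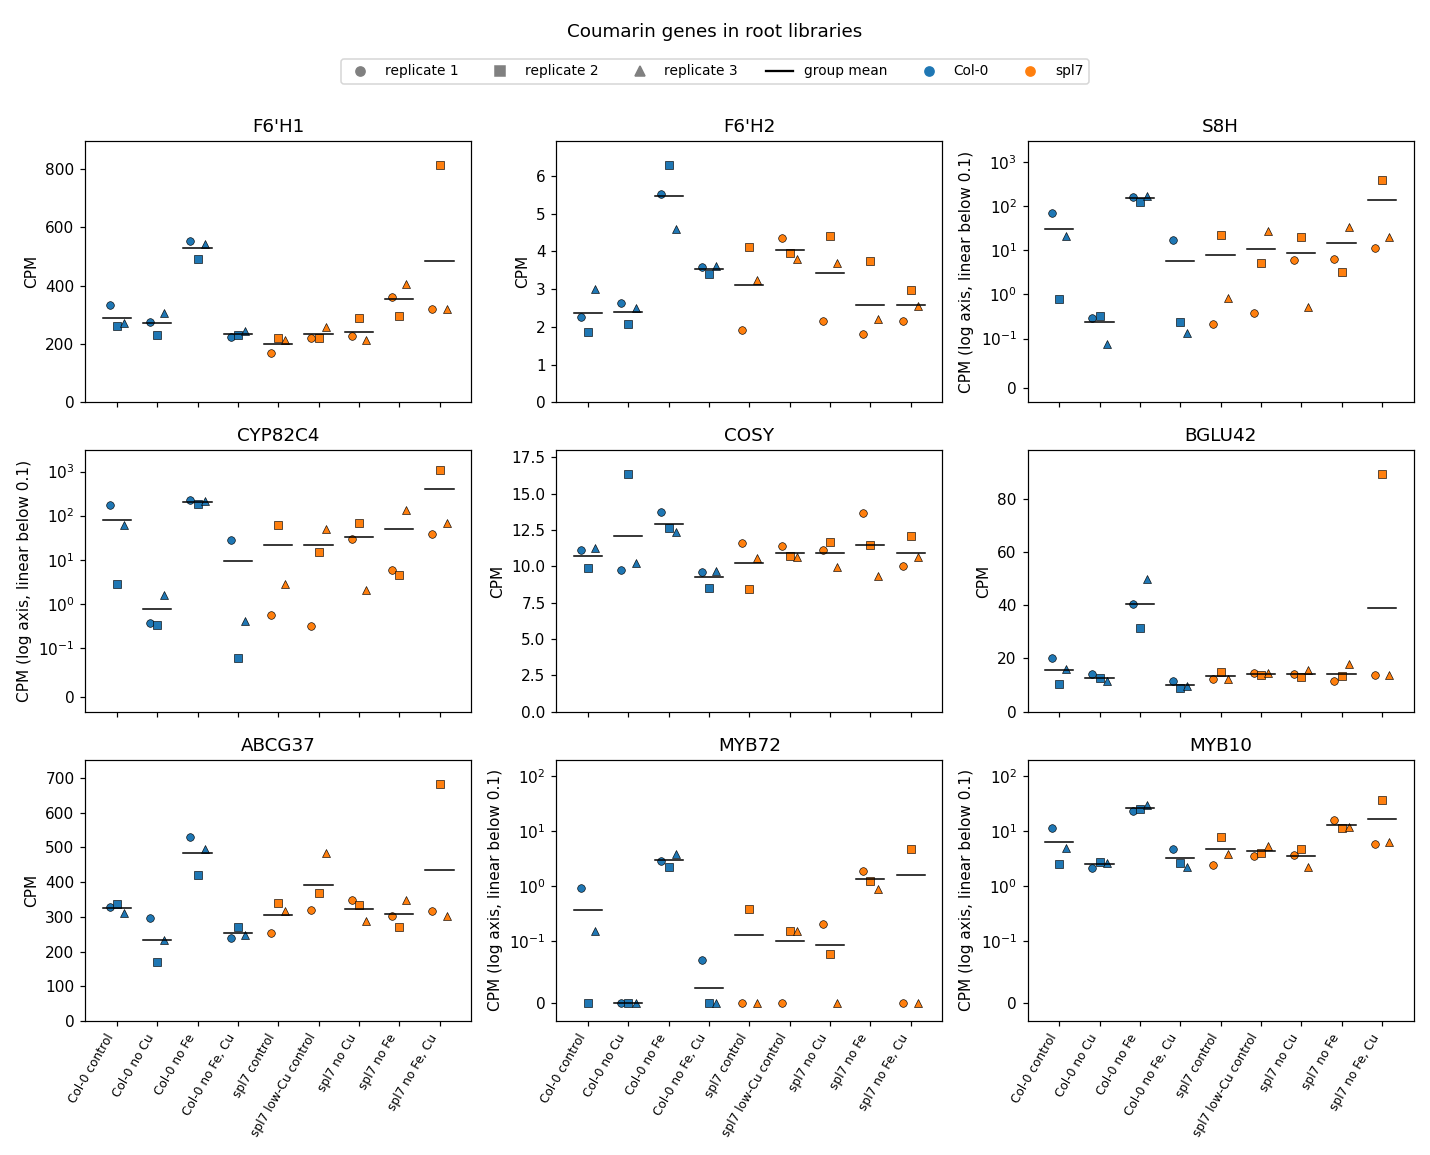
Level of the 9 coumarin genes in every root library, in CPM, by genotype and treatment; points are replicates, bars are group means, and S8H, CYP82C4, MYB72 and MYB10 are on a log axis that is linear below 0.1. The 3 iron-free Col-0 libraries lie above the 3 Col-0 controls in every panel, and replicate 2 of doubly deficient spl7 is the highest point in 7 of the 9 panels.

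Copper removal alone was compared with the control in Col-0 roots. None of the 9 genes was called by edgeR, where 0.0733% of genes were. An unadjusted p below 0.05 was found for 2 of the 9, against 3262 of all 20462 genes tested. The DESeq2 Wald test, which called 190 genes in all, called those 2, S8H and CYP82C4, as lower. The count over all genes, 15 in the main fit, ran from 11 to 1518 with 1 library left out, and that of the 9 stayed at 0. S8H was at 0.293, 0.327 and 0.0893 CPM without copper, from 4, 3 and 1 counts, and all 3 values lay below the lowest control value of 0.777 CPM. CYP82C4 was at 0.366, 0.327 and 1.61 CPM, below the lowest control value of 2.87 CPM. The changes were -6.97 ± 2.63 for S8H (adjusted p = 0.237, Wald test 0.0163) and -6.66 ± 2.42 for CYP82C4 (adjusted p = 0.225, Wald test 0.0234). FRO2 (7.69, 10.3 and 28.6 CPM) and IRT1 (7.99, 21.1 and 49.0 CPM) were also below all their control values without passing the test (adjusted p = 0.202 and 0.223). F6'H1, at 276, 232 and 307 CPM, overlapped its control (-0.09 ± 0.24). ABCG37 was at 298, 171 and 232 CPM, separate from the control (-0.48 ± 0.23, adjusted p = 0.315). MYB72 had no count in the 3 copper-free libraries, and MYB10 was at 2.12, 2.72 and 2.68 CPM.

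Removing copper together with iron from Col-0 roots gave no called difference from the control and lower levels than the removal of iron alone. Against the control none of the 9 was called by edgeR or by the Wald test, where edgeR called 4.69% of genes. The 1 gene with an unadjusted p below 0.05 was F6'H2, where 4487 of all 20462 genes tested had one. F6'H2 lay above all its control values (0.58 on the log2 scale). F6'H1 (-0.31), ABCG37 (-0.37) and COSY (-0.21) lay below all of theirs without passing. Against iron-free roots all 9 genes lay lower without overlap, as did 19.6% of all genes tested, and 5 of them were called as lower and 0 as higher, where 8.72% of genes were called (5.06% lower). The median change of the 9 was -2.02, against -0.01 over all genes tested. F6'H1 fell to 225, 232 and 245 CPM (-1.18 ± 0.24, adjusted p = 0.00339). BGLU42 fell to 11.4, 8.83 and 9.75 CPM (-2.02 ± 0.46, adjusted p = 0.00829), and ABCG37 to 239, 269 and 249 CPM (-0.94 ± 0.23, adjusted p = 0.0143).

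Of the regulators, MYB10 fell to 4.84, 2.68 and 2.27 CPM (-3.00 ± 0.58, adjusted p = 0.00235). MYB72 fell to 1 count in all 3 libraries together, against 135 counts in iron-free roots, a ratio of 125 (22.1 to 4980, counting error only, adjusted p = 0.0172). S8H was at 16.9, 0.237 and 0.134 CPM and CYP82C4 at 27.4, 0.0788 and 0.401 CPM. Replicate 1 of the doubly deficient group thus held most of the transcripts of both, and neither change passed (S8H -4.73 ± 1.54, adjusted p = 0.0577, and CYP82C4 -4.46 ± 1.75, adjusted p = 0.117). The Wald test called S8H (adjusted p = 0.0447) and COSY (adjusted p = 0.0471) beside the 5. Without that replicate the change of S8H was -9.66 (adjusted p = 0.0462). With the 6 compared libraries fitted alone all 9 genes were called as lower. F6'H2 (3.58, 3.39 and 3.61 CPM) and COSY (9.61, 8.52 and 9.68 CPM) were lower than in iron-free roots without passing the main test (adjusted p = 0.129 and 0.0649). The call of ABCG37 was lost without iron-free replicate 1 or without doubly deficient replicate 1 or 3 (adjusted p 0.0624 to 0.0642), and that of MYB72 without any of the doubly deficient replicates (0.0625 to 0.0828), which left 3 calls without doubly deficient replicate 3.

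It was also tested whether the Col-0 roots lacking both metals departed from the added changes of the iron-free and copper-free roots. No coumarin gene was called by edgeR, where 2.89% of genes were. An unadjusted p below 0.05 was found for 3, against 4663 of all 20462 genes tested. The Wald test called 1, F6'H1 (-1.08, adjusted p = 0.0307). The edgeR value for F6'H1 was -1.08 ± 0.34 (adjusted p = 0.0734), and with the Col-0 root libraries fitted alone F6'H1 (adjusted p = 0.0009) and BGLU42 (-1.75, adjusted p = 0.00278) were both called.

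**Figure D3:**
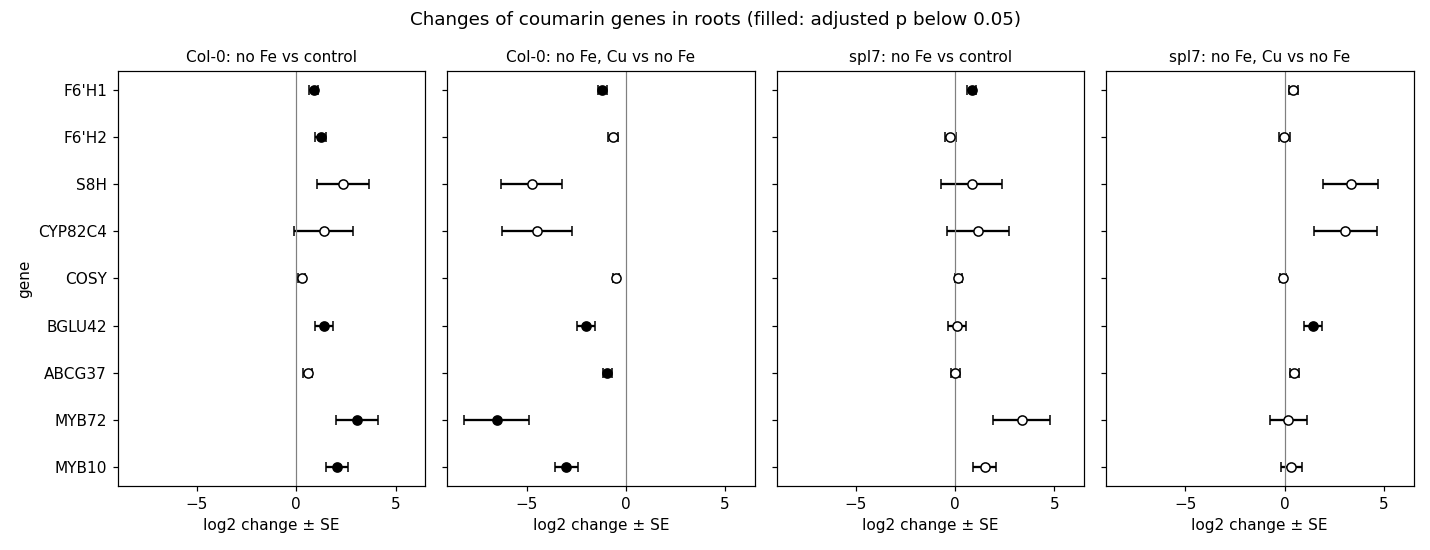
Log2 change ± standard error of each coumarin gene in 4 root comparisons; filled points passed the test at an adjusted p below 0.05. In Col-0 the changes lie to the right without iron and to the left when copper is removed as well, with 5 genes called in each, and in spl7 1 gene is called in each; the fitted change of MYB72 against groups with almost no counts depends on the small number the fit adds to each count.

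In spl7 roots 1 coumarin gene was called against the control without iron and 1 without both metals, and the control levels are given first. F6'H1 was at 168, 219 and 213 CPM in the spl7 control, S8H at 0.214, 22.8 and 0.831 CPM, CYP82C4 at 0.570, 61.9 and 2.79 CPM, and MYB10 at 2.50, 7.78 and 3.93 CPM. S8H and CYP82C4 were again uneven, each highest in replicate 2 of this group. BGLU42 (12.3, 15.02 and 12.4 CPM) and ABCG37 (255, 341 and 317 CPM) were even. After the low-copper pretreatment shared with Col-0, the spl7 control had 221, 221 and 259 CPM of F6'H1, 0.383, 5.19 and 27 CPM of S8H and 0.306, 15.01 and 49.4 CPM of CYP82C4. None of the 9 genes differed by the edgeR or Wald test between this control and Col-0 (13.3% of genes called) or between the spl7 pretreatments (4.36% called), with 1 and 0 genes at an unadjusted p below 0.05. Over all 20462 genes tested, 6064 and 3767 had such a p. F6'H2 came nearest, at 4.37, 3.95 and 3.80 CPM in low-copper spl7 against at most 3.00 CPM in Col-0 (0.78 ± 0.28, adjusted p = 0.0634), and it was called without Col-0 control replicate 3 (0.98, adjusted p = 0.0481). The summed leaf markers differed between these controls, at 64.9 to 203 CPM in low-copper spl7, 17.1 to 57.8 CPM in the other spl7 control and 53.2 to 93.0 CPM in Col-0.

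Without copper, spl7 roots showed no coumarin gene called by either tool (0.210% of genes called by edgeR), none at an unadjusted p below 0.05, and every gene overlapped its control. Over all 20462 genes tested, 1740 had an unadjusted p below 0.05. F6'H1 was at 227, 288 and 213 CPM and S8H at 5.93, 20.4 and 0.527 CPM.

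Without iron, 1 of the 9 genes was called in spl7 roots, where 13.1% of genes were (8.33% higher). F6'H1 rose to 362, 297 and 404 CPM (0.83 ± 0.24, adjusted p = 0.0243). The call was lost without iron-free replicate 1 or without any control replicate (0.71 to 0.89, adjusted p 0.0521 to 0.108), and when the spl7 iron-free and control libraries were fitted alone (adjusted p = 0.211). MYB10, at 16.0, 11.3 and 12.2 CPM, and MYB72, at 1.88, 1.25 and 0.898 CPM from 30, 19 and 11 counts, lay above all spl7 controls without passing (1.49 ± 0.57, adjusted p = 0.0849, and 3.35 ± 1.42, adjusted p = 0.123). Both were called when iron-free replicate 3 and doubly deficient replicate 2 were left out of the fit of all root libraries (adjusted p = 0.00479 and 0.00373). BGLU42 (11.6, 13.4 and 17.9 CPM) and ABCG37 (303, 269 and 348 CPM) overlapped their controls, with changes of 0.10 ± 0.47 and 0.01 ± 0.23.

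In 2 of the 3 iron-free spl7 roots S8H and CYP82C4 lay within the range of the spl7 control, while BHLH38 was at its highest and FIT at its lowest of all 27 root libraries. S8H was at 6.51, 3.28 and 33.4 CPM and CYP82C4 at 5.95, 4.53 and 135 CPM. BHLH38, one of the 4 bHLH genes that rose in this group (3.83 ± 0.97, adjusted p = 0.0109), was at 120, 82.9 and 27.01 CPM. With the spl7 iron-free and control libraries fitted alone no gene of any kind was called in this comparison, BHLH38 included (adjusted p = 0.258). FIT was at 84.3, 86.3 and 133 CPM there, IRT1 at 552, 478 and 439 CPM and FRO2 at 321, 259 and 326 CPM. Of the other 25 root libraries, 6 had more than 20 CPM of BHLH38, a limit chosen after its values were seen, and in these S8H was at 33.4 to 388 CPM and CYP82C4 at 135 to 1090 CPM. CASP1 was at 56.5, 79.8 and 148 CPM and NRT2:1 at 1137, 819 and 68.5 CPM in the same 3 libraries, and whether these differences bear on S8H and CYP82C4 was not tested.

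**Figure D4:**
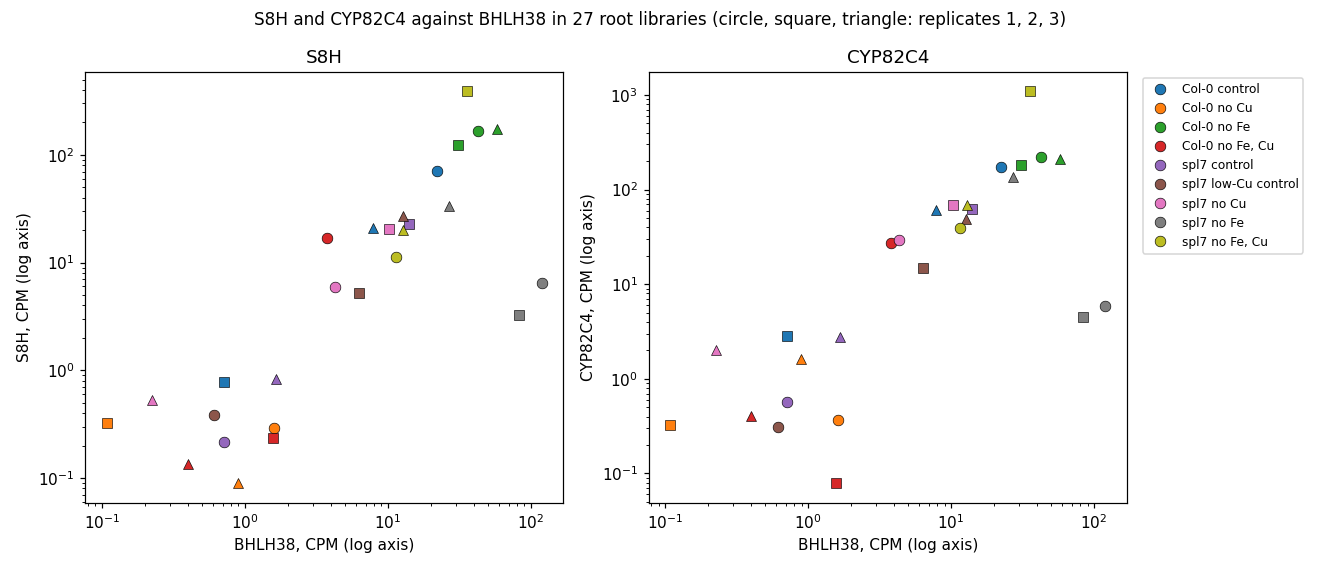
Level of S8H (left) and CYP82C4 (right) against BHLH38 in the 27 root libraries, in CPM on log axes; colours are groups and shapes are replicates. Replicates 1 and 2 of iron-free spl7 lie apart at the lower right, with 83 to 120 CPM of BHLH38 and 3 to 7 CPM of S8H, and replicate 2 of doubly deficient spl7 is the highest point in both panels.

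Removing both metals from spl7 roots gave high coumarin transcripts in 1 library, whereas in the other two S8H, BGLU42, ABCG37 and MYB10 lay within the range of the control. F6'H1 was at 321, 814 and 321 CPM and was the only gene of the 9 called against the control (1.28 ± 0.24, adjusted p = 0.00872), where 0.855% of genes were called (0.479% higher). All 3 values of F6'H1 lay above the controls, and without replicate 2 the change was 0.68 (adjusted p = 0.058), while without control replicate 1 it was 1.16 (adjusted p = 0.0648). An unadjusted p below 0.05 was found for 7 of the 9, against 8.97% of all genes. With 1 library left out, the change of BGLU42 ran from 0.05 to 1.96 and that of S8H from 1.00 to 8.07. The change of MYB72 was 3.55 in all the libraries and -3.86 without replicate 2. S8H was at 11.3, 388 and 20.1 CPM and CYP82C4 at 39.2, 1090 and 68.0 CPM. BGLU42 was at 13.8, 89.4 and 13.6 CPM, MYB10 at 5.996, 37.7 and 6.43 CPM and ABCG37 at 316, 685 and 304 CPM. MYB72 had 0, 65 and 0 counts. The same library held 1281 CPM of FRO2, against 137 and 185 CPM in replicates 1 and 3, 223 CPM of FIT against 105 and 110 CPM, and 35.7 CPM of BHLH38 against 11.5 and 12.9 CPM.

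Against iron-free spl7 roots, 1 coumarin gene was called, where 13.9% of genes were (5.19% higher). It was BGLU42 (1.45 ± 0.45, adjusted p = 0.0364), whose groups overlapped, and without doubly deficient replicate 2 its change was -0.05 (adjusted p = 0.909). The call was also lost without iron-free replicate 1 or 2 (adjusted p = 0.216 and 0.146). Without doubly deficient replicate 2 and iron-free replicate 3, MYB72 (adjusted p = 0.00156) and MYB10 (-1.13, adjusted p = 0.046) were lower in doubly deficient than in iron-free spl7 roots. In all the libraries MYB10 differed by 0.34 ± 0.52 (adjusted p = 0.681).

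Whether copper removal in the absence of iron acts differently in the genotypes was tested as the difference between the differences. It was called for 5 of the 9 genes, all with a higher value in spl7, where 2.04% of genes were called (0.968% higher). The differences were 3.47 ± 0.65 for BGLU42 (adjusted p = 0.00637) and 1.63 ± 0.34 for F6'H1 (adjusted p = 0.0123). They were 1.44 ± 0.33 for the exporter gene ABCG37 (adjusted p = 0.0227), 3.34 ± 0.78 for MYB10 (adjusted p = 0.0255) and 8.05 ± 2.08 for S8H (adjusted p = 0.044). CYP82C4 (7.52 ± 2.36, adjusted p = 0.0978) and MYB72 (6.71 ± 2.03, adjusted p = 0.0894) had large values that did not pass. Without replicate 2 of doubly deficient spl7 that of CYP82C4 was 4.61 and that of MYB72 turned to -0.70 (adjusted p = 0.901). BGLU42 and F6'H1 were called whichever of the 12 libraries was left out, whereas S8H, ABCG37 and MYB10 were lost in many of these fits. The call of S8H was also lost with the replicate number as a block in the fit (7.54, adjusted p = 0.0833). Without replicate 2 of doubly deficient spl7, the difference of BGLU42 was 1.96 (adjusted p = 0.00514) and that of F6'H1 1.03 (adjusted p = 0.0168). In the same fit S8H was at 4.89 (adjusted p = 0.255), MYB10 at 1.91 (adjusted p = 0.137) and ABCG37 at 0.95 (adjusted p = 0.0754), which left 2 calls. The count was also 2 without Col-0 iron-free replicate 3, spl7 iron-free replicate 1 or 2, or Col-0 doubly deficient replicate 2 or 3, and 3 without Col-0 iron-free replicate 1. In the fit without iron-free replicate 3 and doubly deficient replicate 2 of spl7, 6 genes were called. With the 4 groups fitted alone none was called, with adjusted p between 0.122 and 0.138 for the 5 genes. Pretreatment differed between the genotypes and cannot be told apart from genotype here.

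The response to iron removal alone differed between the genotypes in 1 gene, where 7.02% of genes were called (2.97% lower). F6'H2 rose in Col-0 and was at 1.82, 3.74 and 2.20 CPM in iron-free spl7 against 1.92, 4.12 and 3.25 CPM in its control, a difference of -1.47 ± 0.39 (adjusted p = 0.0228). It was lost with the 4 groups fitted alone (adjusted p = 0.131) and without Col-0 control replicate 2, spl7 control replicate 2, Col-0 iron-free replicate 2 or spl7 iron-free replicate 1 (-1.21 to -1.36, adjusted p 0.0681 to 0.0895). The difference for BGLU42 was -1.29 ± 0.65 (adjusted p = 0.25). It was called without iron-free replicate 3 and doubly deficient replicate 2 of spl7 (-1.49, adjusted p = 0.000378). For F6'H1 the difference was -0.04 ± 0.33.

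Across all root groups, iron-free Col-0 and doubly deficient spl7 together had the highest mean levels for every gene but F6'H2 and COSY. The order of the groups below them differed between the genes. F6'H1 ran from 529 ± 33.6 CPM (SD, n = 3) in iron-free Col-0 through 486 ± 285 CPM in doubly deficient spl7 and 354 ± 54.2 CPM in iron-free spl7 to 290 ± 39.3 CPM in the Col-0 control, and the other 5 groups had means of 200 to 271 CPM. Neighbours in this order overlapped, apart from the low-copper and other spl7 controls at its end. MYB10 ran from 26.3 ± 3.27 CPM in iron-free Col-0 through 16.7 ± 18.2 CPM in doubly deficient spl7 and 13.2 ± 2.50 CPM in iron-free spl7 to 2.51 ± 0.334 CPM in copper-free Col-0. The second place of doubly deficient spl7 rested on replicate 2 for both genes, and its mean without that library was 321 CPM for F6'H1 and 6.21 CPM for MYB10, below iron-free spl7. Its means without replicate 2 were 15.7 CPM for S8H, 53.6 CPM for CYP82C4, 13.7 CPM for BGLU42, 310 CPM for ABCG37 and 0 CPM for MYB72. Each of these lay below the mean of the Col-0 control. BGLU42 was at 40.6 ± 9.21 CPM in iron-free Col-0, and all 3 of these libraries exceeded every other root library except replicate 2 of doubly deficient spl7. COSY varied least, with group means of 9.27 to 12.9 CPM, and its highest library, at 16.3 CPM, was copper-free Col-0 replicate 2.

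The genes differed in how variable they were among the 15 root libraries that had iron in the treatment. The ratio of the highest to the lowest library was 565 for CYP82C4 (0.306 to 173 CPM). It was 794 for S8H (0.0893 to 71.0 CPM), whose lowest library, copper-free Col-0 replicate 3, had 1 count, and 332 without that library. MYB72 had no count in some of these libraries and at most 0.950 CPM, so no ratio was formed. It was 5.5 for MYB10, 2.83 for ABCG37, 2.39 for F6'H2, 1.99 for F6'H1, 1.96 for BGLU42 and 1.94 for COSY. The late enzymes S8H and CYP82C4 thus varied far more between these libraries than F6'H1, the first enzyme of the branch, and the exporter ABCG37.

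Likeness of course was measured as the root mean square difference of centred log2(CPM + 0.5) over the 27 root libraries, as a description. S8H and CYP82C4 were nearest to each other, at 0.72, against spreads of their own of 2.86 and 3.11, and the nearest genes outside the 9 were FRO2 (1.11 and 1.28), AT5G38820 (1.22 and 1.61) and IRT1 (1.34 and 1.43). MYB72 and MYB10 were nearest to each other at 0.35, followed by AT3G58060 and AT1G74770. F6'H1 was nearest to 4CL2 (0.24), which encodes a ligase that activates hydroxycinnamic acids, AT3G61410 (0.24) and SAM1 (0.25), an S-adenosylmethionine synthetase gene. ABCG37 was nearest to HMA3 (0.20), a vacuolar metal transporter gene, FIT (0.22) and AT1G18910 (0.22). BGLU42 was nearest to AT5G55620, AT1G14185 and GRF11 (0.40 to 0.42), F6'H2 to AT1G12150, the root hair gene COBL9 and AT5G51270 (0.20 to 0.21), and COSY to IPP2, AT1G15120 and SDH7 (0.12 each). Without iron-free replicate 3 and doubly deficient replicate 2 of spl7, S8H and CYP82C4 (0.71) and MYB72 and MYB10 (0.36) were again nearest to each other among the 9. All of the 3 nearest other genes were then shared for F6'H1, S8H and CYP82C4, 2 of 3 for F6'H2, COSY, ABCG37 and MYB10, 1 for MYB72 and 0 for BGLU42.

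The genes that supply feruloyl-CoA were counted beside the coumarin genes. Of 13 phenylpropanoid genes, 3 rose and 1 fell in iron-free Col-0 roots, with a median change of 0.36, and 9 rose and 0 fell in iron-free spl7 roots, with a median of 0.60. Over all genes 20.4% and 13.1% were called in these comparisons. With the spl7 iron-free and control libraries fitted alone, none of the 12 phenylpropanoid genes that could be tested was called (lowest adjusted p 0.0943). In Col-0 the risen genes were 4CL2 (0.98 ± 0.23, adjusted p = 0.00538), 4CL1 and CYP98A3, which hydroxylates the phenolic ring (0.50 ± 0.14, adjusted p = 0.0185), and PAL3 fell. In spl7 4CL3 (2.73 ± 0.60, adjusted p = 0.00469), 4CL2 (0.94 ± 0.23, adjusted p = 0.00874), PAL4 (0.89 ± 0.13, adjusted p = 0.00034) and C4H, the cinnamate hydroxylase gene (0.82 ± 0.13, adjusted p = 0.00056), changed most among the called genes. Transcripts of 4CL3 were scarce, with a root median of 0.364 CPM and 1 CPM or more in only 2 of 27 root libraries. The difference between the genotypes was called for 4 of the 13, PAL4 (1.18 ± 0.19, adjusted p = 0.000836), PAL3, C4H and HCT, all with a higher value in spl7, and for 1 with the 4 groups fitted alone (7.02% of all genes were called). In doubly deficient against iron-free Col-0 roots 7 of the 13 fell and 0 rose, where 8.72% of all genes were called (5.06% lower).

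Of the 6 relatives (the scopolin glucosidases BGLU21 to BGLU23, CYP82C2, CYP82C3 and the exporter ABCG36) 5 were tested in roots. BGLU21 rose in iron-free Col-0 roots, from 510, 396 and 563 CPM to 853, 1019 and 1032 CPM (0.98 ± 0.15, adjusted p = 0.000227). It was at 307, 480 and 488 CPM in iron-free spl7 roots against 579, 594 and 525 CPM in their control, and the genotypes differed in this response by -1.40 ± 0.21 (adjusted p = 0.0005). CYP82C2 rose in both genotypes without iron (2.22 ± 0.78, adjusted p = 0.0473, in Col-0 and 2.58 ± 0.74, adjusted p = 0.0235, in spl7). It fell in doubly deficient against iron-free roots in both (-5.17 ± 1.09, adjusted p = 0.00443, and -5.48 ± 0.98, adjusted p = 0.00193). In spl7 neither change of CYP82C2 was called with the compared groups fitted alone. It was at 0.506, 0.801 and 0.207 CPM in doubly deficient spl7, where CYP82C4 was at 39.2, 1090 and 68.0 CPM.

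Of the 8 genes for iron bHLH factors, IRT1 and FRO2, 0 rose and 1, BHLH121, fell in iron-free Col-0 roots, although their median change was 1.77. Over all genes 20.4% were called there. In iron-free spl7 roots BHLH100, BHLH38, BHLH39 and BHLH101 rose and BHLH121 fell, where 13.1% of all genes were called, and none of these 5 was called with the compared groups fitted alone (lowest adjusted p in the list 0.216). In doubly deficient against iron-free Col-0 roots 7 of the 8 fell, where 8.72% of all genes were called (5.06% lower). Among the 7 were BHLH100 (-5.96 ± 1.35, adjusted p = 0.00755), IRT1 (-4.78 ± 1.34, adjusted p = 0.0287) and FIT (-1.07 ± 0.23, adjusted p = 0.00443). The difference of this contrast between the genotypes was called for FIT (1.60 ± 0.32, adjusted p = 0.0092) and for none of the other 7, where 2.04% of all genes were called. It was called for 0 of the 8 with the 4 groups fitted alone (lowest adjusted p 0.0977).

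In rosettes 5 of the 9 genes had enough counts to be tested (F6'H1, COSY, BGLU42, ABCG37 and MYB10). S8H stayed at or below 0.122 CPM, CYP82C4 at or below 0.251 CPM, F6'H2 at or below 0.317 CPM and MYB72 at or below 0.176 CPM in all 27 rosette libraries. In Col-0 rosettes none of the 5 was called by edgeR or the Wald test, and none had an unadjusted p below 0.05, without copper (0.0200% of genes called), without iron (2.41%), without both (7.77%) or without both against without iron (12.8%). In the same order, 1718, 2982, 4315 and 5226 of all 20015 genes tested had such a p. In spl7 rosettes none was called by either tool without copper (1.12% of genes, 1 gene at an unadjusted p below 0.05) or without both (2.11%, 0 genes). Over all 20015 genes tested, 3030 and 2921 had such a p. Without iron 1 of the 5 was called, where 27.4% of genes were (12.6% higher). MYB10 rose from 1.34, 3.05 and 2.51 CPM to 5.17, 4.20 and 3.87 CPM (0.94 ± 0.31, adjusted p = 0.0273). The call was lost without control replicate 1 (0.66, adjusted p = 0.152), control replicate 3 (adjusted p = 0.0539) or iron-free replicate 1 (adjusted p = 0.108). F6'H1 was at 1.42, 0.700 and 1.11 CPM there against 0.633, 0.265 and 0.671 CPM (1.07 ± 0.46, adjusted p = 0.0896). In the same comparison all 5 leaf markers were called as lower, with a median change of -0.61. The part of this in the coumarin gene differences was not tested.

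Between the low-copper pretreated controls, 3 of the 5 genes differed in rosettes, 2 higher and 1 lower in spl7, where 42.2% of genes were called (20.6% higher, 21.6% lower). BGLU42 was at 21.1, 21.9 and 18.4 CPM in spl7 against 26.9, 30.2 and 29.2 CPM in Col-0 (-0.49 ± 0.08, adjusted p = 1.99e-05). F6'H1 was at 1.57, 1.14 and 2.15 CPM against 0.127, 0.534 and 0.701 CPM (1.79 ± 0.45, adjusted p = 0.00249). ABCG37 was at 3.52, 2.76 and 2.38 CPM against 2.22, 2.06 and 1.62 CPM (0.57 ± 0.19, adjusted p = 0.0191). The groups of all 5 tested genes were separate, including the uncalled COSY (adjusted p = 0.128) and MYB10 (adjusted p = 0.0742). The share of all genes with separate groups was not computed here. The call of ABCG37 was lost in the Wald test (adjusted p = 0.0587), when both groups were fitted alone (0.0956), and without Col-0 replicate 3 (0.43, adjusted p = 0.109) or spl7 replicate 1 (0.40, adjusted p = 0.148). Root markers were at most 2.67 CPM in all rosette libraries.

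Parts of some of these counts could belong to other genes. F6'H1, COSY, MYB72 and MYB10 each overlap 1 annotated gene on the opposite strand, and the strand setting of the counting is not given in the sources used here, so reads from a gene and its overlapping partner cannot be told apart. The closest other gene to CYP82C4 was CYP82C3, at 88.2% identity over 884 bases, which itself reached at most 2.35 CPM in roots. F6'H1 and F6'H2 matched at 77.5% over 577 bases.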

How the data were processed

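The deposited files held 1 unnormalised read count per gene and library for 54 libraries, for which the submitters' processing notes name Bowtie, HTSeq and the TAIR10 genome. Tool versions and the strand setting are not given in the sources used here. The 27 libraries of a tissue were fitted together, apart from the other tissue, in edgeR 4.0.16 (R 4.3.3, quasi-likelihood test, TMM scaling, filterByExpr with a minimum count of 10 and a total of 15), which tested 20462 genes in roots and 20015 in rosettes. Roots and rosettes were compared in a fit of all 54 libraries (22078 genes). P-values were adjusted by Benjamini-Hochberg over all genes tested. CPM values are counts-per-million values on library totals scaled within each tissue, also where roots and rosettes stand side by side. Per-kilobase values use exon lengths of RefSeq TAIR10.1, whose symbols and promoters were also used. Names of F6'H1, F6'H2, S8H and COSY are not in that annotation and follow the gene choice. Counting intervals are exact at 95%, for counting error only. Floors are 3 counts in each library, averaged over the group as CPM.

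The 9 genes and the other lists were chosen with earlier results of these data known. All 9 are named in every group, and of the other lists up to 4 called genes with the largest change per comparison, plus FIT, IRT1 and FRO2 and the 3 genes most like each of the 9. BHLH38 outside iron-free spl7 roots, CASP1, NRT2:1, PAL3, HCT and BHLH121 as named were chosen after their values were seen. Alternatives were DESeq2 1.42.0 size factors, its Wald test, no filter, the compared groups alone, a replicate block, each library left out and, chosen after seeing the data, the 25 root libraries without iron-free replicate 3 and doubly deficient replicate 2 of spl7. The fits were also run on simulated counts that held no library standing apart, so that run says nothing about calls that turn on such libraries.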

Additional observations from a re-analysis of the deposited data

Results flagged for a closer look

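The change from iron-free to doubly deficient roots differed between spl7 and Col-0 by the test of the difference itself for BGLU42 (3.47), F6'H1 (1.63), ABCG37 (1.44), MYB10 (3.34) and S8H (8.05), each higher in spl7. Without replicate 2 of doubly deficient spl7 the calls of ABCG37, MYB10 and S8H were lost and BGLU42 was at 1.96 and F6'H1 at 1.03, and with the 4 groups fitted alone none of the 5 was called (adjusted p 0.122 to 0.138). The response to iron removal alone differed for F6'H2 (-1.47), which rose in Col-0 roots, 1 gene of 9 where 7.02% of all genes were called. This call was lost with the 4 groups fitted alone (adjusted p = 0.131) and in 4 of the 12 fits that left out 1 library. These are log2 differences between responses, and pretreatment differed with genotype.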

How the results depend on the processing

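Counts of called coumarin genes moved by over 1.5 times as follows. The DESeq2 Wald test called 2 in copper-free Col-0 roots (main count 0) and 1 for the departure from additivity (0); its smaller moves were to 4 in iron-free Col-0 (5), 7 for doubly deficient against iron-free Col-0 (5) and 2 between rosette controls (3). Fitting only the compared groups gave 1 in doubly deficient Col-0 roots (0), 9 against iron-free Col-0 roots (5), 0 in iron-free spl7 (1), 0 for doubly deficient against iron-free spl7 (1), 1 between the low-copper controls (0), 0 for the genotype difference without iron (1), 0 for that of copper removal without iron (5) and 2 for the departure from additivity (0), and by less 6 in iron-free Col-0 roots (5) and 2 between rosette controls (3). The 25 root libraries, an alternative chosen after seeing the data, gave 1, 8, 3, 2, 1, 2, 6 and 2 for the 8 of these comparisons named first. In doubly deficient against iron-free spl7 roots they turned MYB72 to -7.41 and MYB10 to -1.13, and leaving out doubly deficient replicate 2 alone turned BGLU42 to -0.05 and MYB72 to -7.2 (ranges over the libraries left out -0.05 to 1.87 and -7.2 to 0.8). DESeq2 size factors changed no call of a coumarin gene, and no filter ended 1, MYB72 in iron-free Col-0 roots.

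Leaving out 1 library at a time gave 1 to 5 called genes in iron-free Col-0 roots, 3 to 5 for doubly deficient against iron-free Col-0, 0 to 2 in iron-free spl7 and in doubly deficient spl7, 0 to 3 for doubly deficient against iron-free spl7, 0 to 1 between the low-copper root controls, 0 to 1 for the genotype difference without iron, 2 to 7 for that of copper removal without iron, 0 to 1 for the departure from additivity, 0 to 1 in iron-free spl7 rosettes, 2 to 3 between rosette controls and 7 to 9 between organs. Calls over all genes moved too, in the 25 root libraries to 6389 in iron-free Col-0 (4165), 8112 in iron-free spl7 (2684), 8359 for doubly deficient against iron-free spl7 (2844), 3571 for the genotype difference in copper removal without iron (418), 3660 for that without iron (1436), 3555 for doubly deficient against iron-free Col-0 (1784), 4953 between the low-copper controls (2712), 2530 in doubly deficient Col-0 (960), 2160 between spl7 pretreatments (892), 2878 for the departure from additivity (591), 235 in copper-free Col-0 (15) and 307 in copper-free spl7 (43). Fitting only the compared groups gave 0 in iron-free spl7 and for doubly deficient against iron-free spl7, 2322, 4350, 783, 1356, 300, 94 and 2183 in doubly deficient Col-0, against iron-free Col-0, in doubly deficient spl7 (175), between spl7 pretreatments and for the 3 differences in the order genotype without iron, genotype with copper removal and additivity, and 158, 0 and 807 in iron-free Col-0 (482), copper-free spl7 (225) and doubly deficient spl7 (422) rosettes. The Wald test gave 190, 1473, 169, 291, 762 and 1135 for copper-free and doubly deficient Col-0 roots, copper-free and doubly deficient spl7 roots, the genotype difference in copper removal and additivity, and 37 (4) and 491 (225) in copper-free Col-0 and spl7 rosettes.

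Replicate numbers were checked as a possible pairing. The correlation of deviations between samples of the same number ran from -0.346 to 0.236 in roots and from -0.298 to 0.304 in rosettes. The root median was -0.014, against -0.00247 between samples of different numbers. Of 108 pairs of the same number, 17 in roots and 18 in rosettes were above 0.1. Whether samples of 1 number shared a batch cannot be told from these values. With the replicate block, BGLU42 in doubly deficient against iron-free spl7 roots was 1.38 (adjusted p = 0.0557, called genes 0) and the S8H genotype difference was 7.54 (adjusted p = 0.0833), and 164 of 166 values kept their side of the threshold. Genes with few counts, MYB72 above all, are limited by depth, and for S8H and CYP82C4 the spread between replicates limits what the test can show. The cause of these movements was not tested.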
